A study of Mus musculus with 4 samples.

Results

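The early effect of losing Tbx1 was examined in all lineage cells at embryonic day (E) 8.5, by comparing the conditional knockout (cKO) with its control (Ctrl) across genes. Every deposited barcode with at least 1000 detected genes and at most 10% of its unique molecular identifiers (UMIs, counted molecules) from mitochondrial genes was kept, which gave 1396 cells of the 1434 Ctrl barcodes and 1023 of the 1090 cKO barcodes. These 2419 cells were taken from 14243 barcodes in the 4 libraries of the series. Ctrl embryos were Tbx1Cre/+;Rosa26-GFPflox/+ and cKO embryos were Tbx1Cre/flox;Rosa26-GFPflox/+, both of the Swiss Webster strain. The Cre gene sits in the Tbx1 locus and takes out that copy, so Ctrl cells were heterozygous for Tbx1 and in both groups Cre switched on a green reporter in cells that had expressed Tbx1 and in their descendants. The upper part of the E8.5 body was dissected, embryos of both sexes were pooled without sex typing, and live GFP-positive cells were sorted and captured by droplet 3′ single-cell RNA-seq. The crosses differed: the flox dams of the cKO embryos were a separate stock, and the cKO pool was slightly further along by somite count. There was 1 library a side, so no difference could be set against replicates, genotype cannot be told apart from library, litter, stage or sex makeup, and each error range below is a 95% interval of counting error only.

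TBX1 is a T-box transcription factor of the pharyngeal mesoderm, endoderm and otic vesicle, and loss of its gene on human chromosome 22 underlies much of the 22q11.2 deletion syndrome. In the early embryo it acts in the cardiopharyngeal mesoderm, the shared progenitors of the outflow tract and right ventricle of the heart and of the muscles of jaw, face and neck. These progenitors make and receive FGF, retinoic acid, WNT, BMP and Notch signals, and they carry Isl1, Tcf21, Aplnr and Nrg1 before they turn to cardiac or muscle programmes.

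The kept cells held 25341821 UMIs in Ctrl and 25741125 in cKO, with medians of 17511 UMIs and 3701.5 genes a cell in Ctrl and 24360 UMIs and 4432 genes in cKO. At the edge of the cell rule, the fewest genes in a kept cell were 1009 in Ctrl and 1437 in cKO, and the most in a cell left out for it were 978 and 927. Only 4 barcodes were shared by both libraries. No doublet caller was run, and 26 Ctrl and 18 cKO cells had over 2 times their library's median UMIs. Sex makeup set the libraries apart: cells with Xist UMIs and no UMI of a Y-linked gene were 64.5% of Ctrl and 21.2% of cKO. Where a result is given by sex, cells with Y UMIs and at most 5 Xist UMIs (375 Ctrl, 687 cKO) are set beside cells with 6 or more Xist UMIs and no Y UMI (768 Ctrl, 203 cKO). The libraries also stood apart in expression. Clustered without integration, they formed 16 clusters, of which 7 took a share of one library at least 10 times that of the other and together held 71.0% of Ctrl and 59.9% of cKO cells. Blood markers were all but missing, with Alas2, Gata1 and Ptprc at 0 in both libraries and the 9 markers summing to 0.829 UMIs per 1000000 UMIs (UPM) in Ctrl and 0.350 in cKO. The sorted cells carried the markers of cardiopharyngeal, somitic and head mesoderm of a Tbx1 lineage sort, with summed levels of 333 and 310 UPM for 9 branchiomeric muscle markers, 226 and 303 for 9 somitic markers and 721 and 719 for 11 head mesenchyme markers.

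Tbx1 itself (ENSMUSG00000009097, GRCm38 chromosome 16, 18580979 to 18590671) was not lower in the cKO library. Ctrl cells held 2174 Tbx1 UMIs, a level of 85.8 UPM (82.2 to 89.5), and cKO cells held 3037, a level of 118 UPM (114 to 122). The log2 ratio of cKO over Ctrl was 0.46 (0.38 to 0.54). A 3′ tag can lie outside the part of the gene that Cre removes, so these counts check neither the deletion nor the labels. The ratio was above 0 in 10 of the 14 clusters with at least 20 Tbx1 UMIs, and it was 0.94 (0.69 to 1.19) in somitic mesoderm-like cells against -0.08 (-0.29 to 0.13) in branchiomeric muscle-like cells. It was 0.33 (0.20 to 0.47) among cells with Y UMIs and 0.80 (0.66 to 0.93) among cells with Xist UMIs. No other T-box gene stood out: of 15 listed, 4 were tested, with a list median of 0.25, and the second largest ratio was that of Mga at 0.28 (0.13 to 0.42).

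Few genes lay beyond 2-fold at this stage. A gene was tested if it had at least 100 UMIs over both libraries and UMIs in at least 10 cells of the library where it was higher, and 10343 genes passed. Of these, 144 were at least 2-fold higher in cKO (1.39%) and 41 at least 2-fold lower (0.396%), which is 1.79% either way. The whole counting interval lay past 2-fold for 82 of the higher and 10 of the lower genes. The median log2 ratio of all tested genes was 0.04, with quartiles at -0.14 and 0.24. Among the 144 higher genes, 106 were named genes, 29 were models without a name and 9 were mitochondrial, ribosomal or Y-linked. Only 50 of the named higher genes and 8 of the 26 named lower genes reached 10 UPM in the library where they were higher. The plot of ratios against level shows how the spread narrows as the level rises, and how few genes above 100 UPM leave the band within 2-fold.

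**Figure D1:**
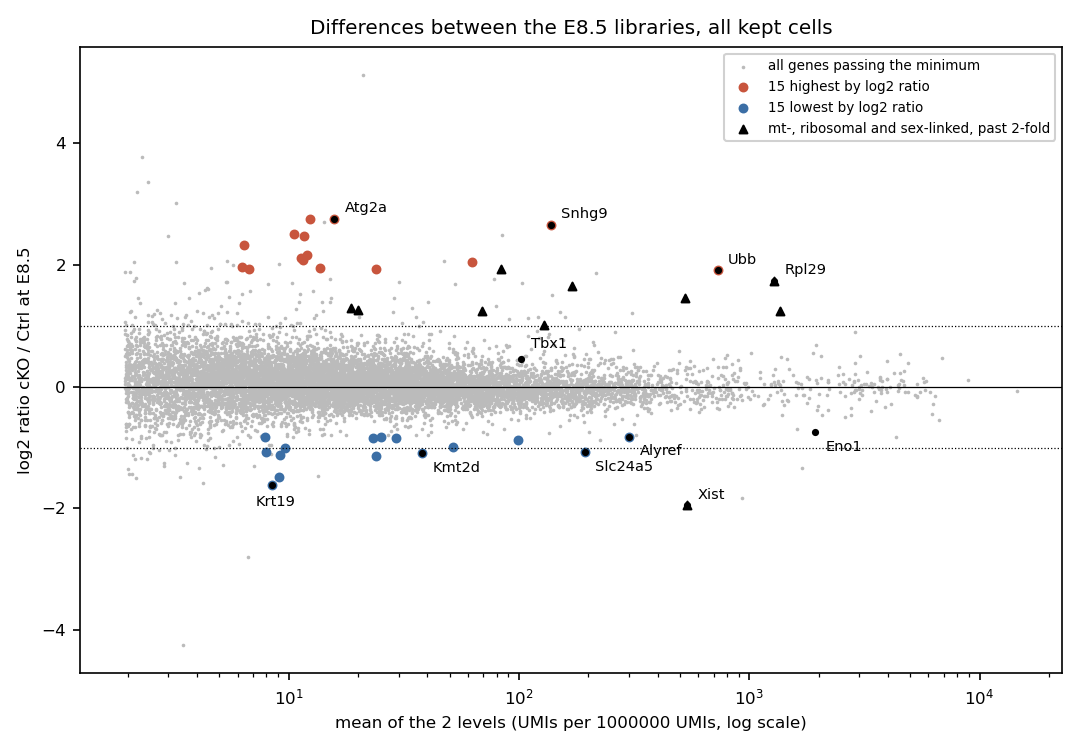
Log2 ratio of cKO over Ctrl at E8.5 (vertical axis) against the mean of both levels in UMIs per 1000000 UMIs (horizontal, log scale) for the 10343 tested genes, 1 point a gene, with dotted lines at 2-fold. Most genes lie between the lines; Snhg9, Ubb and Rpl29 lie above them at high levels, Slc24a5 and Xist below them, and grey points beyond the coloured ones are models without a name or genes under 10 UPM.

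The 15 genes lowest in cKO by size were led by Krt19, Tslp and Ankrd1. Krt19, an epithelial keratin (chromosome 11, 100140810 to 100145926), was at 12.8 UPM (11.5 to 14.3) in Ctrl and 4.20 UPM (3.44 to 5.07) in cKO (ratio -1.61). It was lower in all 9 clusters with enough UMIs, among them cluster 3, led by Igfbpl1, Tnni1, Hoxb1 and Mef2c, where it was 15.8 UPM in Ctrl and 1.68 in cKO. Tslp, an epithelial cytokine, was at 13.3 and 4.78 UPM (ratio -1.48) and was lower in 7 of 7 clusters. Its level in branchiomeric muscle-like cells was 40.8 UPM in Ctrl and 15.7 UPM in cKO. Calcrl, the receptor of adrenomedullin and CGRP, was at 12.6 and 5.79 UPM (-1.12). Its highest level was in endothelial-like cells, with 124 UMIs in Ctrl and 41 in cKO, a ratio of -1.47 (-2.02 to -0.95). Ctla2a, a protease inhibitor gene with a close paralogue that makes its count uncertain, was also an endothelial-like cell gene, with 109 UPM in Ctrl and 62.8 in cKO there. Ankrd1, a cardiac stress-response gene, was at 33.1 and 15 UPM (-1.14), and 763 of its 840 Ctrl UMIs came from 21 cardiomyocyte-like cells.

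Other low genes were not tied to 1 cluster. Slc24a5, a cation exchanger known from pigment cells (chromosome 2, 125068127 to 125088677), was lower in 15 of 15 clusters, with 261 UPM (255 to 267) in Ctrl and 125 UPM (120 to 129) in cKO, a ratio of -1.07. Alyref, an mRNA export adaptor, was at 385 and 218 UPM (-0.82) and lower in 15 of 15. Kmt2d, a histone H3 lysine 4 methyltransferase, was at 51.6 and 24.3 UPM (-1.09) and lower in 13 of 13. Phpt1, a histidine phosphatase, was at 129 and 70.0 UPM (-0.88) and lower in 15 of 15. Gstp1, a glutathione transferase, was at 68.5 and 34.6 UPM (-0.99), an uncertain count because of its near-identical neighbour. Car4, a carbonic anhydrase, was at 30.1 and 16.6 UPM (-0.85), with a ratio of -0.58 (-0.83 to -0.32) among cells with Y UMIs and -2.40 (-2.95 to -1.89) among cells with Xist UMIs. Ccdc85b, Bloc1s1, Fyb and PISD completed the 15 lowest, with ratios from -1.0 to -0.83. Of these 15, all but Ankrd1 kept the sign of their ratio under each of the 14 alternative settings and cell subsets tried, both sex classes included.

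The 15 genes highest in cKO by size were led by Atg2a, Tapbpl and Snhg9, and most of them were at low levels. Snhg9, a short host gene of a small nucleolar RNA (chromosome 17, 24719531 to 24719965), was at 37.6 UPM (35.3 to 40.1) in Ctrl and 237 UPM (231 to 243) in cKO. Its ratio was 2.66 (2.56 to 2.76), and it was higher in 15 of 15 clusters. Its ratio was 2.62 among cells with Y UMIs and 2.68 among cells with Xist UMIs. Ubb, a polyubiquitin gene, was at 307 and 1154 UPM (1.91) and higher in 15 of 15 clusters, a count that other ubiquitin genes make uncertain. Phkg1, a subunit of phosphorylase kinase, was at 4.26 and 18.3 UPM (2.11), with its UMIs in 44 Ctrl and 76 cKO cells. Atg2a, which moves lipid to growing autophagosomes, was at 4.06 and 27.5 UPM (2.76), and Vps8, a subunit of an endosome tethering complex, at 5.6 and 21.7 UPM (1.95). Of genes known from antigen presentation or immune cells, Tapbpl was at 3.20 and 21.5 UPM (2.75), H2-T23 at 3.16 and 17.9 (2.5, uncertain among its sister genes), Slamf1 at 9.90 and 38 (1.94), Unc13d at 4.38 and 18.6 (2.08) and Xaf1 at 2.56 and 10.0 (1.97). Ppm1k, Zfp316, Pbld2 and Retn were also among the 15 highest, with ratios from 1.93 to 2.47. All 15 kept their sign under each of the 14 alternatives.

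Sex-linked, mitochondrial and ribosomal genes were past 2-fold too. Xist was at 851 UPM in Ctrl and 221 in cKO (-1.95), and the Y-linked Ddx3y and Eif2s3y had ratios of 1.29 and 1.26. Mitochondrial transcripts took 1.35% of UMIs in Ctrl and 1.88% in cKO, with mt-Atp8 (1.93), mt-Nd3 (1.65), mt-Nd2 (1.45), mt-Co2 (1.25) and mt-Nd4l (1.24) past 2-fold. Rpl29, a ribosomal protein gene with many near-identical copies, was at 593 and 1977 UPM (1.74). Within Ctrl it was at 227 UPM in cells with Y UMIs and 804 UPM in cells with Xist UMIs. Rps12-ps3, a ribosomal pseudogene, had a ratio of 1.02. Dissociation and heat stress genes were slightly lower in cKO, with a median of -0.18 over 14 tested members and none past 2-fold. The part of depth, RNA quality or cross in the gene differences was not tested.

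The progenitor genes of the cardiopharyngeal mesoderm showed smaller differences, and several signalling genes were lower. Aplnr, the apelin receptor of mesoderm progenitors (chromosome 2, 85136360 to 85139923), was at 36.6 UPM (34.3 to 39.0) in Ctrl and 22.7 UPM (20.9 to 24.6) in cKO, a ratio of -0.69 (-0.84 to -0.54). It was lower in 11 of 11 clusters, which are groups of cells from the same libraries and no replicates. In cluster 3, which held the most Aplnr, it was 123 UPM in Ctrl and 70.2 in cKO (-0.81, -1.06 to -0.57), and in branchiomeric muscle-like cells 16 and 4.79 (-1.74, -2.73 to -0.84). Nrg1, the ErbB ligand neuregulin, was at 17.5 UPM (15.9 to 19.2) and 11.8 UPM (10.5 to 13.2), a ratio of -0.57 (-0.78 to -0.35), lower in 6 of 6 clusters. In branchiomeric muscle-like cells Nrg1 was 45.0 UPM in Ctrl and 18.1 in cKO (-1.31, -1.81 to -0.83), whereas in cluster 3 the interval of its ratio of -0.35 reached from -0.74 to 0.04. With each cell thinned to 10000 UMIs, 61.2% of Ctrl and 41.2% of cKO cells of cluster 3 had an Aplnr UMI, once 5 Ctrl and 1 cKO cells that were too shallow had been left out. In neural crest-like cells 0 of 31 Ctrl and 0 of 16 cKO cells did, which allows shares of up to 9.68% and 18.8% at 3 cells of the total. Median depths before thinning were 26241 and 33425 UMIs there against 18099.5 and 25485 in cluster 3. Unthinned, the cluster 3 shares were 77.6% and 62.8%, and 12.9% of Ctrl and 0 of 16 cKO neural crest-like cells had an Aplnr UMI.

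FGF ligands of the pharynx and heart field were lower as well. Fgf8 was at 49.4 UPM (46.7 to 52.2) in Ctrl and 34.4 UPM (32.2 to 36.8) in cKO, a ratio of -0.52 (-0.65 to -0.40), and was lower in 11 of 14 clusters. It was lower both in cluster 3 (137 and 88.4 UPM) and in branchiomeric muscle-like cells (106 and 60.2 UPM), while its ratio was 0.46 (-0.10 to 1.03) in pharyngeal endoderm-like cells. Fgf10 was at 12 and 7.89 UPM, a ratio of -0.61 (-0.87 to -0.34), and was lower in 5 of 6 clusters. Edn1, the endothelin ligand that patterns the arches, was at 12.7 and 8.47 UPM, a ratio of -0.59 (-0.84 to -0.33), and most of its UMIs came from branchiomeric muscle-like cells, with 81.6 and 56.5 UPM there. Lhx2, a LIM homeobox gene of head muscle progenitors, was at 7.26 and 3.73 UPM, a ratio of -0.96 (-1.33 to -0.60), and lower in 5 of 5 clusters. Cyp26a1, which breaks down retinoic acid, was at 20.8 and 12.5 UPM (-0.73, -0.94 to -0.53), and Grem1, a BMP antagonist, at 12.4 and 7.19 UPM (-0.78, -1.05 to -0.51). Lfng, a modifier of Notch, was at 5.84 and 3.92 UPM (-0.57, -0.95 to -0.20).

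Other genes of the same fields were higher or about level. Hes1, a Notch target, was at 78.7 UPM (75.3 to 82.2) in Ctrl and 141 UPM (136 to 145) in cKO, a ratio of 0.84 (0.76 to 0.92), and higher in 14 of 15 clusters. The exception was the cardiomyocyte-like cells, with 173 UPM in Ctrl and 59.9 in cKO. The FGF receptor gene Fgfr1 was at 31.5 and 59.2 UPM (0.91, 0.79 to 1.04), above 0 or at 0.00 in each of its 13 clusters. Gata6, a GATA factor of heart and foregut, was at 10.7 and 18.4 UPM (0.78, 0.57 to 1.0) and higher in 7 of 7 clusters. Foxf1, a hedgehog-responsive gene of the splanchnic mesoderm, was at 5.88 and 10.6 UPM (0.85, 0.56 to 1.15) and higher in 2 of 3 clusters. With cKO cells weighted to the cluster makeup of Ctrl, its ratio was 0.47. Mef2c was at 43.0 and 62.5 UPM (0.54, 0.43 to 0.65), and the WNT inhibitor gene Frzb at 21.3 and 37.2 UPM (0.80, 0.65 to 0.96). The pan-cardiac progenitor gene Isl1 was nearly level at 36.4 and 40.2 UPM (0.14, 0.01 to 0.27), and so was Nkx2-5 at 25.4 and 25.3 UPM (0.00, -0.16 to 0.15). Of the further genes that the study names in progenitors, Irx1 (-0.32) and Hey1 (-0.25) had intervals below 0, and Tcf21 (0.27), Hand2 (0.36) and Bmp7 (0.46) above it. The intervals of Bmp4 (0.10), Sema3c (-0.03), Wnt5a (-0.03) and Pax6 (-0.22) held 0. Myf5, Pax8 and Bdnf, genes of muscle, otic and neuronal fates, were under the minimum with 6 and 5, 11 and 15, and 32 and 24 UMIs in Ctrl and cKO. The plot of levels sets these genes side by side and shows intervals that are narrow against the gaps for Aplnr, Fgf8, Hes1 and Fgfr1.

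**Figure D2:**
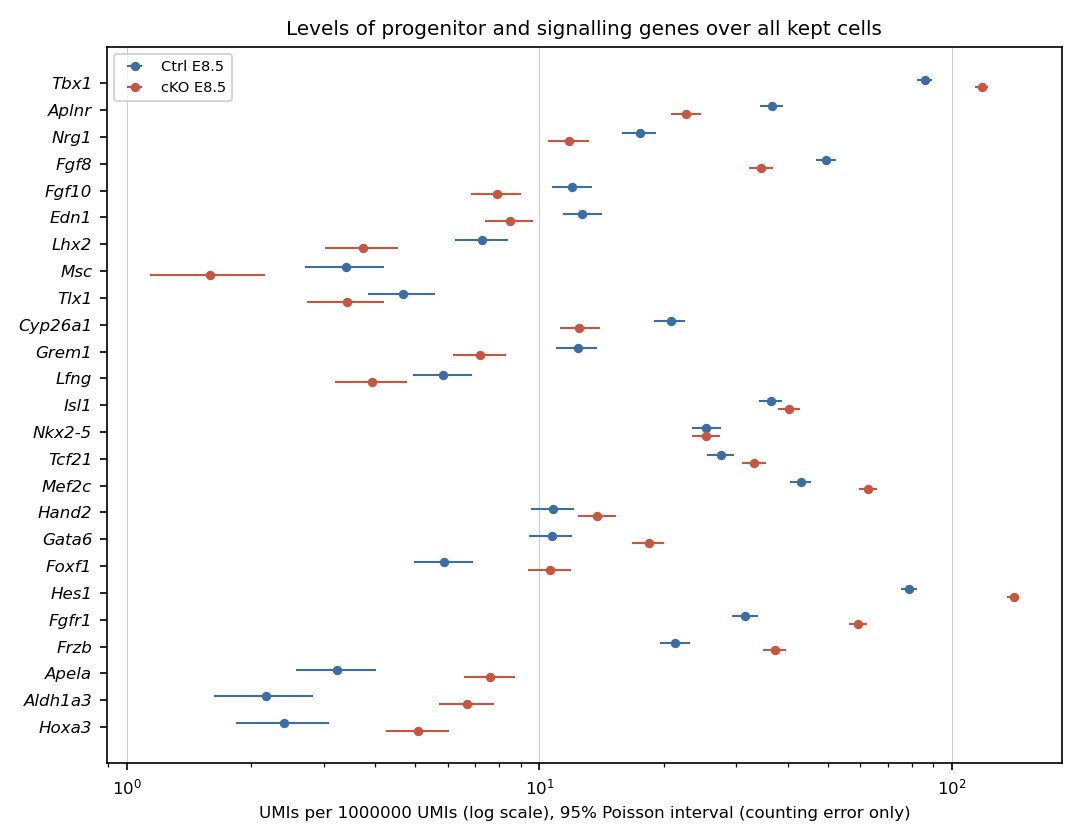
Levels of 25 progenitor and signalling genes over all kept cells of Ctrl E8.5 (blue) and cKO E8.5 (red) in UMIs per 1000000 UMIs on a log axis, with 95% Poisson intervals. Aplnr, Nrg1, Fgf8, Fgf10, Edn1 and Lhx2 are lower in cKO, Isl1 and Nkx2-5 are nearly level, and Hes1, Fgfr1, Gata6 and Foxf1 are higher.

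The sex classes differed for part of these genes. Aplnr had a ratio of -0.93 (-1.17 to -0.69) among cells with Y UMIs and -0.22 (-0.49 to 0.05) among cells with Xist UMIs. Once each class was weighted to the cluster makeup of all Ctrl cells, both ratios were near one another, at -0.93 and -0.94. Fgf8 went from -0.96 and -0.14 to -0.82 and -1.25 under the same weighting. Nrg1 had ratios of -1.06 (-1.40 to -0.72) and 0.40 (0.05 to 0.74), and weighted ones of -0.94 and -0.36. Fgf10 had -1.16 (-1.54 to -0.78) and 0.21 (-0.26 to 0.67), and weighting left it at -0.93 and 0.41, of opposite sign. Lhx2 (-1.46 and -0.95), Edn1 (-1.10 and -1.27) and Cyp26a1 (-0.86 and -2.07) were lower in both classes. Hes1 (0.82 and 0.85) and Fgfr1 (0.86 and 0.91) were higher in both to nearly the same extent. Mef2c was level among cells with Y UMIs at 0.00 (-0.17 to 0.18) and had a ratio of 1.30 (1.12 to 1.47) among cells with Xist UMIs, and Isl1 had -0.21 (-0.41 to -0.01) and 0.55 (0.32 to 0.78). Nkx2-5, level over all cells, had -0.57 (-0.83 to -0.31) and 0.62 (0.37 to 0.87). Tcf21 had -0.25 (-0.47 to -0.03) and 0.58 (0.31 to 0.85), Hand2 0.00 (-0.36 to 0.38) and 0.96 (0.59 to 1.33), and Bmp7 0.10 (-0.25 to 0.45) and 0.96 (0.63 to 1.29), so the intervals of these 3 genes were above 0 among cells with Xist UMIs and not among cells with Y UMIs. Grem1 had -0.98 (-1.39 to -0.57) and -0.05 (-0.57 to 0.45). Irx1, at -0.32 (-0.52 to -0.12) and 0.05 (-0.16 to 0.25), and Hey1, at -0.53 (-0.83 to -0.23) and -0.11 (-0.50 to 0.27), had intervals below 0 among cells with Y UMIs only. Weighted, Mef2c was at 0.19 and 0.61, Isl1 at -0.10 and -0.46, Nkx2-5 at -0.21 and -0.42, and Tcf21 at -0.06 and -0.43. Hand2 was at 0.15 and -0.19, Bmp7 at 0.16 and 0.46, and Grem1 at -0.83 and -0.86 under this weighting. Irx1, at -0.29 and 0.47, and Hey1, at -0.42 and 0.31, were then of opposite sign in the classes. The weighted ratios carry no interval. Those of cells with Xist UMIs lean on few cKO cells in some clusters, such as 1 of 203 in cluster 4. Neural crest-like cells, with 0 of 203, were left out of that weighting. The differences between classes were not tested.

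**Figure D3:**
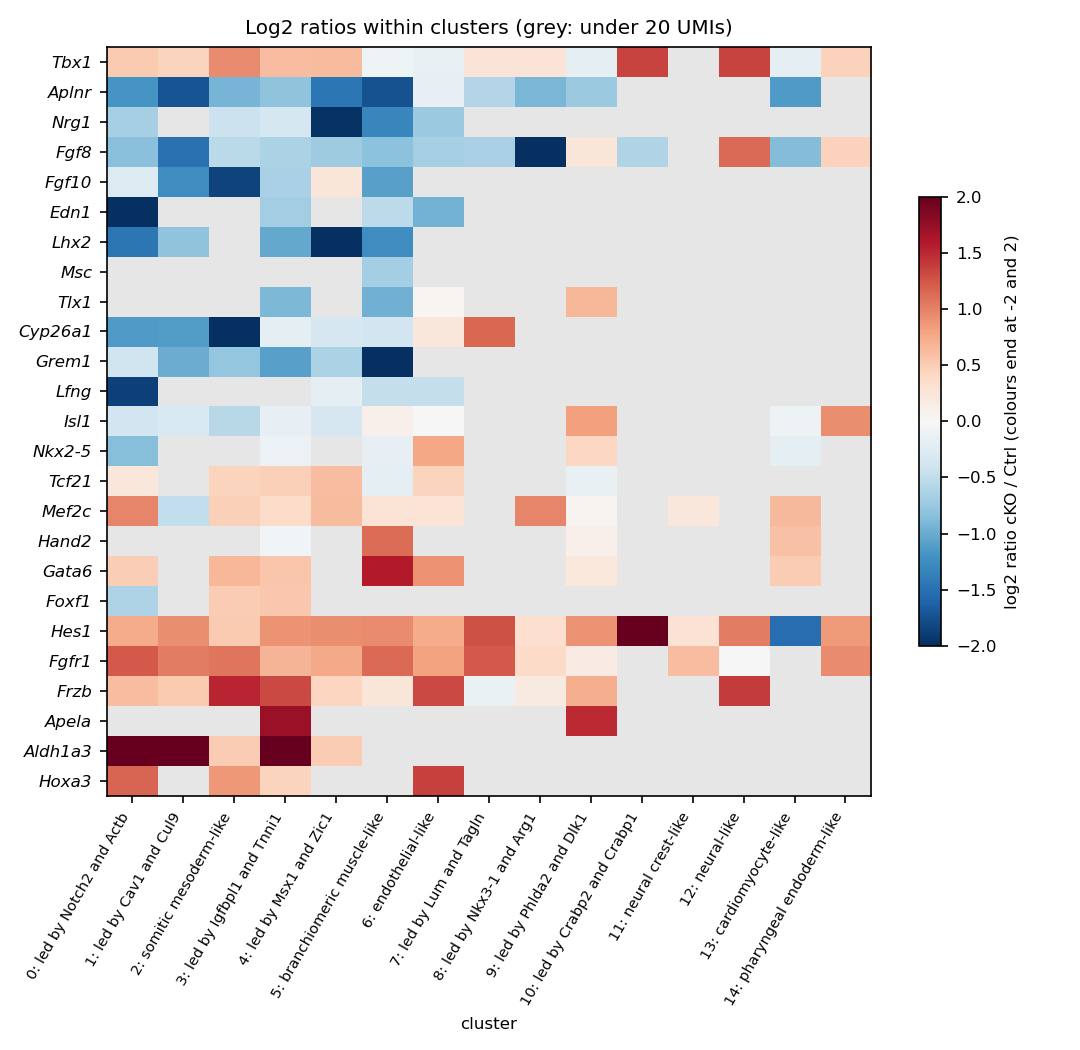
Log2 ratio of cKO over Ctrl (colour, red higher and blue lower in cKO, colours ending at 2 either way) for the same 25 genes (vertical) within each of the 15 clusters (horizontal); grey marks fewer than 20 UMIs. Aplnr is blue in all 11 of its clusters, while Hes1 is red in 14 of 15.

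Gene lists by pathway and tissue gave few members past 2-fold. Over 33 lists with 571 distinct genes, 382 genes were tested, of which 8 were at least 2-fold higher and 2 at least 2-fold lower, 2.62% against the 1.79% of all tested genes. Their median ratio was 0.09. List members below that are named beyond those of the naming rule were picked after their values were seen. Among TBX1-bound genes named in the study, 1 of 16 was past 2-fold, Crtc2, a CREB coactivator, at 3.00 and 6.92 UPM (1.21), and the list median was -0.17. Parvb (0.77) and Spon1 (0.60) of this list were also on the high side, Crybg3 (-0.66) and Sox9 (-0.33) on the low side. The median over genes the study names in progenitors was -0.03, with 0 of 19 past 2-fold. Both lists were taken from the study of these samples and are no independent evidence of a direction.

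No median of a signalling list was above 0.44 or below -0.09. FGF genes had a median of 0.21 over 16 tested, with the lower ligands Fgf8 and Fgf10 beside higher receptors Fgfr1 and Fgfr2 (0.88) and feedback genes such as Spred2 (0.57), Il17rd (0.50) and Dusp6 (0.24). The median of 13 retinoic acid genes was 0.09. Aldh1a3, a retinaldehyde dehydrogenase, was past 2-fold at 2.17 and 6.68 UPM (1.62, 1.18 to 2.09), and Aldh1a2, the main such enzyme of early mesoderm, was at 7.22 and 11.4 UPM (0.66). The WNT list had a median of -0.03 over 13, from Rspo1 (-0.74) to Frzb (0.80). The BMP list had -0.04 over 12, from Grem1 (-0.78) to the inhibitory Smad6 (0.78). Hedgehog genes had the highest median, 0.44 over 11, with 7 intervals above 0 and none below it. Over the 15 alternatives this median ran from 0.10 with 6 or more Xist UMIs and no Y UMI to 0.55 after thinning. The receptor and target gene Ptch1 was at 25.7 and 37.1 UPM (0.53), the effector Gli2 at 12.3 and 17.8 UPM (0.53), and the coreceptor Boc at 3.24 and 6.10 UPM (0.91). Notch genes had a median of -0.09 over 11. The endothelin, neuregulin, apelin and chemokine list had -0.02 over 10, and Apela, a second ligand of the apelin receptor, was past 2-fold at 3.24 and 7.58 UPM (1.23, 0.85 to 1.62). VEGF, semaphorin and guidance genes had a median of 0.28 over 22, with Sema3f (0.97) and Plxnd1 (0.91) highest.

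Over all kept cells, medians of the next lists were above that of all genes, except for branchiomeric muscle factors. Forkhead genes of the head and pharynx had a median of 0.43 over 9, with Foxd1 at 29.1 and 47.6 UPM (0.71). The ratio of Foxd1 was 1.17 (0.92 to 1.42) among cells with Y UMIs and -0.34 (-0.64 to -0.05) among cells with Xist UMIs. Weighted to the cluster makeup of all Ctrl cells, these ratios were 1.09 and 0.31, the latter leaning on few cKO cells in some clusters. Cardiac transcription factors had 0.25 over 10. Over the 15 alternatives their median ran from 0.00 in cells with Y UMIs and at most 5 Xist UMIs to 0.76 in cells with Xist and no Y UMI. These ends are not the matched sex classes set side by side above. The list that holds Six2, Eya1 and Dach1 had 0.25 over 9, with Six2 (0.46) highest. Head mesenchyme factors had 0.26 over 10, with Twist2 (0.61) and Osr1 (0.59) highest and Prrx2, at 428 and 318 UPM, lowest (-0.43). The lowest median of this list under the alternatives was 0.01, with 6 or more Xist UMIs and no Y UMI. Somite and paraxial mesoderm genes had 0.27 over 7, with none below 0, and Meox1 was at 68.9 and 108 UPM (0.65). In the list of Irx, Meis, Pbx and Hox genes the median was 0.25 over 14, and Hoxa3, a patterning gene of the caudal arches, was past 2-fold at 2.41 and 5.09 UPM (1.08). Branchiomeric muscle factors had -0.05 over 9, and Msc, a repressor in head muscle progenitors, was past 2-fold on the low side at 3.39 and 1.59 UPM (-1.09, -1.66 to -0.54). Tlx1, the homeobox gene of the arch muscle core, was at 4.66 and 3.42 UPM (-0.45). By sex its ratio was 0.45 (-0.32 to 1.29) among cells with Y UMIs and -0.70 (-1.62 to 0.12) among cells with Xist UMIs, and both intervals held 0. Sarcomere genes had 0.14 over 17. Over the 15 alternatives this median ran from -1.07 in the 100 Ctrl and 634 cKO cells with Y and no Xist UMI upward. Its highest value was 0.87, with 6 or more Xist UMIs and no Y UMI, again classes that are not matched. Myl2, the ventricular light chain, was past 2-fold at 4.89 and 15.9 UPM (1.70), nearly all of it in the few cardiomyocyte-like cells. Its ratio was 1.38 (0.79 to 2.02) among cells with Y UMIs and 2.25 (1.87 to 2.64) among cells with Xist UMIs. In the 100 Ctrl and 634 cKO cells with Y UMIs and no Xist UMI it was -0.25. Pharyngeal endoderm genes had 0.23 over 8. Pyy, a gut peptide gene, was at 22.1 and 49.3 UPM (1.15), yet within pharyngeal endoderm-like cells it was at 554 and 18.7 UPM (147 and 6 UMIs), and within cluster 3 at 65.9 and 239 UPM. Its ratio was 0.22 (-0.02 to 0.47) in cells with Y UMIs and 2.86 (2.65 to 3.07) in cells with Xist UMIs. Endothelial genes had 0.14 over 16, from Esam (-0.66) to Sox18 (0.82). Over the 15 alternatives their median ran from -0.64 in cells with Xist and no Y UMI to 0.34 in cells with Y and no Xist UMI.

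Matrix genes had the largest share of intervals above 0 of any list. Of 22 tested, 19 had an interval above 0 and none below it, with a median of 0.29 and none past 2-fold. The fibrillar collagen genes Col1a1 (0.80), Col1a2 (0.78) and Col3a1 (0.54) and the laminin gene Lama1 (0.79) stood highest, while Col2a1 was level at 57.6 and 58.1 UPM. Imprinted genes had a median of 0.27 over 21. The growth inhibitor gene Cdkn1c was at 124 and 240 UPM (0.95) and the growth factor gene Igf2 at 158 and 262 UPM (0.73), both higher in 14 of 15 clusters. Neighbours of Tbx1 on chromosome 16, within or near the stretch that matches the human deletion, had a median of 0.16 over 17.

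Glycolysis and hypoxia genes were the list furthest to the low side, with a median of -0.34 over 24 and none past 2-fold. Of these, 18 had an interval below 0 and 1 above it. Eno1, the glycolytic enolase (chromosome 4, 150236708 to 150248879), was at 2420 UPM (2401 to 2439) in Ctrl and 1438 UPM (1423 to 1452) in cKO, a ratio of -0.75, and lower in 15 of 15 clusters, though its count is uncertain beside the copy Eno1b. The phosphoglycerate kinase gene Pgk1 was at 253 and 150 UPM (-0.75) and the lactate dehydrogenase gene Ldha at 3856 and 2921 UPM (-0.40), both lower in 15 of 15 clusters. Gapdh (-0.35), Aldoa (-0.39), Pkm (-0.50) and the glucose transporter gene Slc2a1 (-0.37) were on the same side, and Ddit4, a stress-induced inhibitor of mTOR, was lowest (-0.79). The hexokinase gene Hk2 went the other way, at 137 and 211 UPM (0.63). Eno1 had a ratio of -0.79 in each sex class. The list's members summed to 19701 UPM in Ctrl and 15065 in cKO. The list median lay between -0.50 and -0.30 under all 15 alternatives, while median depth was higher and the mitochondrial share larger in cKO, and their part in it was not tested.

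The remaining lists were those of growth, stress and other tissues. S phase genes had a median of 0.02 over 20 and G2 and M phase genes -0.09 over 20, with Top2a (0.39) and Aurka (-0.42) at the ends of the latter. Genes induced by p53 had -0.19 over 9, and the cell cycle inhibitor gene Cdkn1a was past 2-fold at 4.10 and 1.67 UPM (-1.30, -1.84 to -0.77). Its ratio was -1.03 (-2.28 to 0.25) among cells with Y UMIs, with 11 and 14 UMIs, and -0.20 (-0.92 to 0.46) among cells with Xist UMIs. Otic, placode and neuroblast genes had -0.27 over 4, and neural genes not normally of mesoderm -0.27 over 9, where Stmn2, a microtubule regulator of neurons, was past 2-fold at 2.21 and 4.89 UPM (1.15). Neural-like cells held 16 of its 56 UMIs in Ctrl and 73 of its 126 in cKO. Visceral and yolk sac endoderm genes had -0.20 over 3, with Apoe at 330 and 228 UPM (-0.53). None of the 14 blood and haemoglobin genes reached the minimum. In the plot of list members, 11 of the 32 list medians lay at least 0.2 above the median of all genes and 7 at least 0.2 below it.

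**Figure D4:**
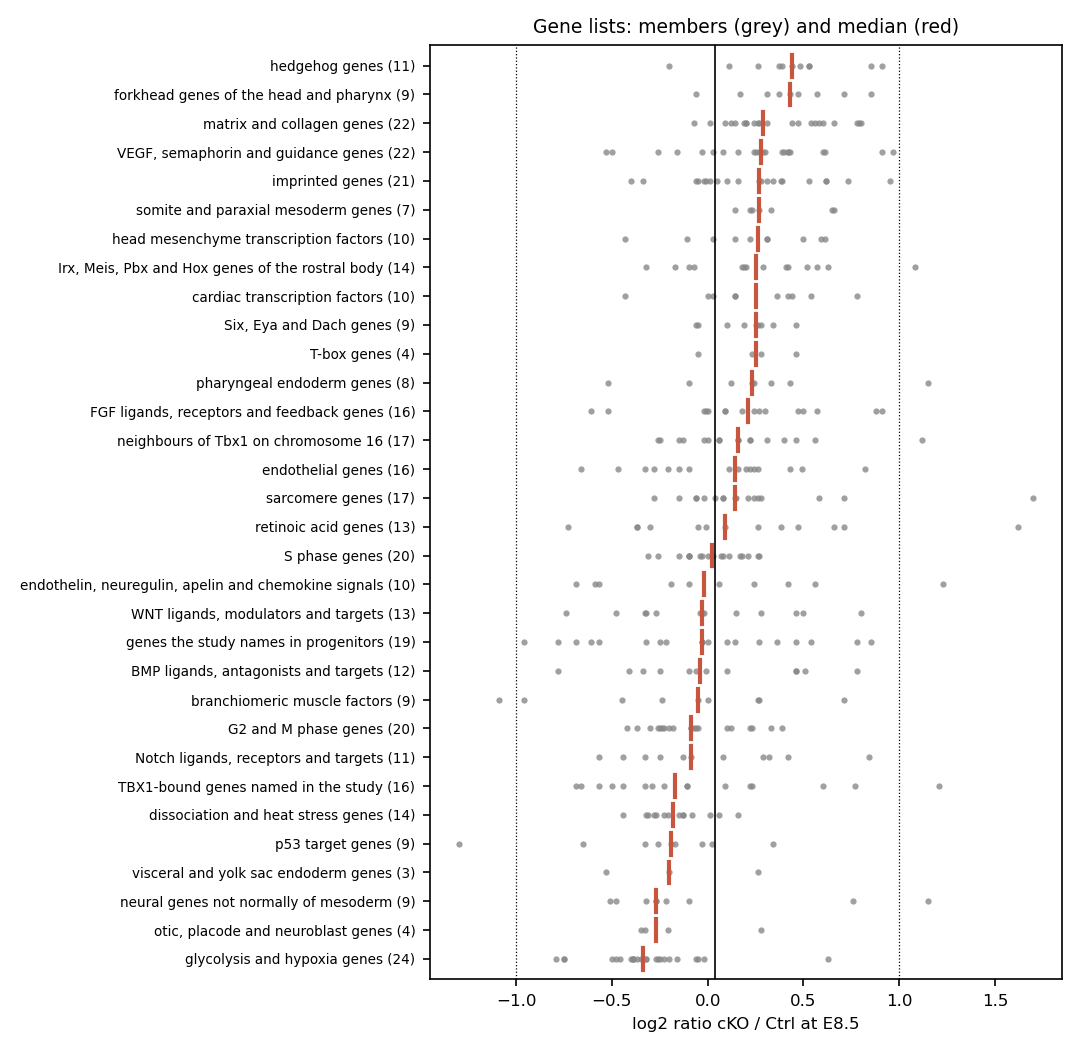
Log2 ratio of cKO over Ctrl at E8.5 (horizontal) for the tested members (grey points) and the median (red bar) of each of 32 gene lists (vertical, number tested in brackets). The solid line is the median of all tested genes at 0.04 and the dotted lines are 2-fold; hedgehog genes have the highest median (0.44) and glycolysis and hypoxia genes the lowest (-0.34).

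Cell makeup was compared in clusters built without the listed genes, the mitochondrial, ribosomal and sex-linked genes and all genes past 2-fold. There were 15 clusters, of which 7 could be named from markers, and unnamed clusters held 66.4% of Ctrl and 62.3% of cKO cells. The interval of the difference in share excluded 0 for 4 clusters. Somitic mesoderm-like cells, with Tcf15, Meox1 and Pax3, were 10.2% of Ctrl (8.69 to 11.9) and 13.3% of cKO (11.4 to 15.5), a difference of 3.12 points (0.542 to 5.79). With class markers also left out of the clustering it was 1.90 (-0.894 to 4.77), and at resolution 0.6 it was 2.54 (-0.532 to 5.68). Both of these intervals held 0. Cluster 3, whose other leading genes were Foxf1, Isl1 and Aplnr, was 9.60% and 13.4%, a difference of 3.79 points (1.23 to 6.44). Cluster 4, led by Msx1 and Zic1, was 12.2% and 8.90% (-3.35, -5.78 to -0.858), and cluster 1, led by Cav1 and Cul9 with Foxd1, was 14.2% and 10.9% (-3.24, -5.85 to -0.543). Branchiomeric muscle-like cells were 9.96% and 11.2% (1.28, -1.17 to 3.83), endothelial-like cells 7.23% and 6.94% (-0.295, -2.33 to 1.83), neural crest-like cells 2.22% and 1.56% (-0.657, -1.75 to 0.505), neural-like cells 1.36% and 2.15% (0.790, -0.258 to 1.98), cardiomyocyte-like cells 1.5% and 1.27% (-0.234, -1.18 to 0.797) and pharyngeal endoderm-like cells 1.15% and 1.27% (0.125, -0.757 to 1.12).

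These shares moved with sex. Among cells with Y UMIs, no cluster's difference excluded 0, and cluster 3 was 11.7% of Ctrl and 9.17% of cKO (-2.56, -6.70 to 1.18). Among cells with Xist UMIs, cluster 3 was 7.68% and 29.1% (21.4, 15.2 to 28.2), somitic mesoderm-like cells were 9.64% and 20.7% (11.1, 5.55 to 17.4), and cluster 4 was 12.4% and 0.493% (-11.9, -14.4 to -8.77). The cKO cells with Xist UMIs thus had another makeup than the 3 other sets of cells. The embryo of each cell is not given in the sources used here, and sex, embryo and genotype cannot be told apart in these shares.

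**Figure D5:**
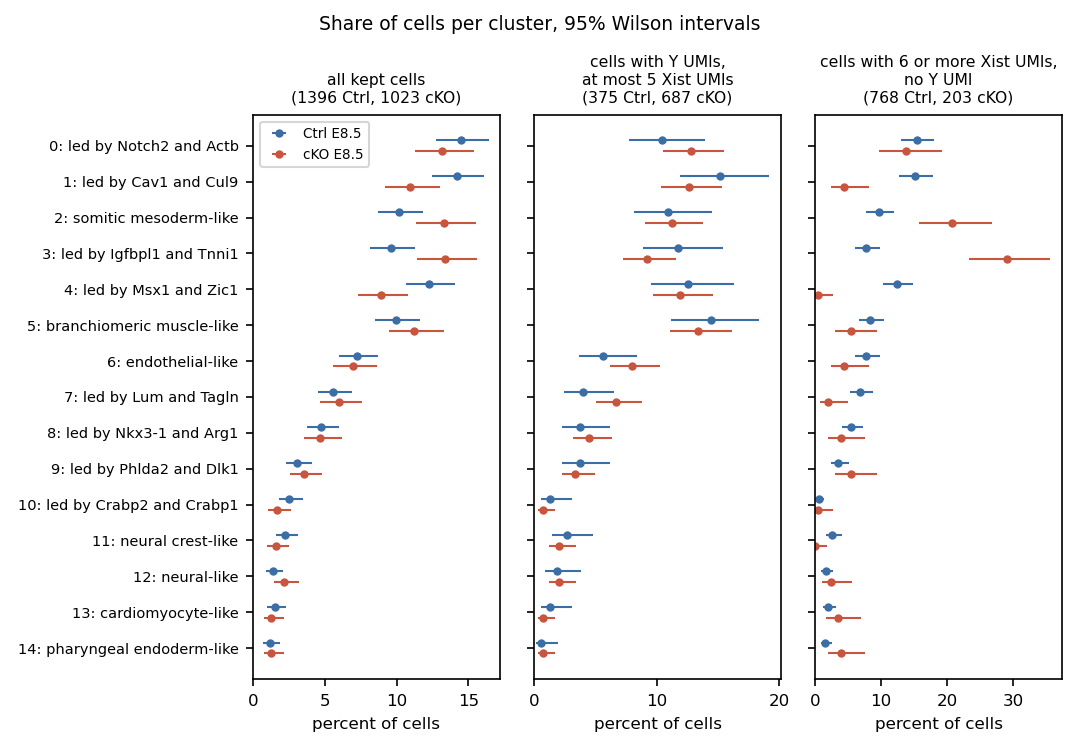
Percent of cells in each of the 15 clusters (vertical) in Ctrl E8.5 (blue) and cKO E8.5 (red) with 95% Wilson intervals, for all kept cells (left), cells with Y UMIs (middle) and cells with Xist UMIs (right). The libraries overlap in most clusters at left and in the middle, and at right clusters 3 (7.68% and 29.1%) and 4 (12.4% and 0.493%) lie far apart.

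The same genes were read at E9.5, where 1 Ctrl library (5446 cells) and 1 cKO library (6264 cells) were taken from the pharyngeal apparatus with the heart. These share no library with the E8.5 pair, but the cKO E9.5 counts were made on another gene table of 31053 genes, and its sex makeup was tilted the other way, with Xist UMIs and no Y UMI in 41.6% of Ctrl and 74.8% of cKO cells. At E9.5, 1.20% of 10275 tested genes were at least 2-fold higher and 4.01% at least 2-fold lower. Across the 10270 genes tested at both stages, the Spearman correlation of the ratios was 0.11, a description over genes that share depth and are not replicates. The median ratio of these genes at E9.5 was -0.25, so a ratio near this value does not stand apart from other genes. Of the 136 genes higher at E8.5 that could be compared, 18 were at least 2-fold higher and 17 at least 2-fold lower at E9.5. Of the 38 lower genes, 18 were at least 2-fold lower at E9.5 and 1 was at least 2-fold higher. Among the lower genes at both stages were Krt19 (-1.61 and -1.88), Tslp (-1.48 and -1.33), Ankrd1 (-1.14 and -1.21) and Ctla2a (-1.07 and -2.67). Of the progenitor and signalling genes that were lower at E8.5, Grem1 was nearer 0 at E9.5 (-0.78 and -0.31), Cyp26a1 was about as low (-0.73 and -0.79), and several others had lower ratios there, with Aplnr at -0.69 and -2.22, Fgf8 at -0.52 and -2.03, Fgf10 at -0.61 and -1.72, Edn1 at -0.59 and -2.16, Lhx2 at -0.96 and -2.0, and Nrg1 at -0.57 and -0.95. Isl1 and Nkx2-5 went from near 0 to -0.95 and -1.23. Kmt2d (0.31), Slc24a5 (0.21) and Gstp1 (0.66) were on the high side at E9.5, and Hes1 (0.01) and Fgfr1 (-0.08) were nearly level. Several genes higher over all cells at E8.5 had ratios below 0 at E9.5, with Mef2c at 0.54 and -0.79 and Foxf1 at 0.85 and -0.59. Gata6 was at 0.78 and -0.36, Bmp7 at 0.46 and -0.89, and Hand2 at 0.36 and -0.27. Tcf21 was at 0.27 and -0.28, and Igf2 at 0.73 and -4.87. The later Igf2 ratio rests on 25544 UMIs for Ctrl against 969 for cKO. Those cKO UMIs were counted with the other gene table, and its part in the Igf2 value was not tested. Among cells with Y UMIs at E8.5, Mef2c and Hand2 were at 0.00, Bmp7 at 0.10 and Tcf21 at -0.25. Foxf1, Gata6 and Igf2 were at 0.96, 0.62 and 0.66 in those cells. Among cells with Xist UMIs, the ratio of Foxf1 weighted to the Ctrl cluster makeup was -0.23. Snhg9 (1.44), Unc13d (3.44), Slamf1 (1.13), Xaf1 (1.74) and Aldh1a3 (3.14) were past 2-fold on the high side at both stages. Whether any of these ratios differ between stages was not tested.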

How the data were processed

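The authors aligned reads with Cell Ranger to mm10 (GRCm38) and deposited the UMI counts of each barcode for each gene as raw numbers, without normalization or cell labels. The submitters' processing notes name version 3.1.0, and the headers of both E8.5 matrices name 3.0.2. Both E8.5 tables list 27998 genes. UMIs of kept cells were summed per library and gene and divided by the library total (UPM) in Python 3.11.15 (pandas 2.3.3, numpy 2.4.6, scipy 1.17.1). Sums carry exact Poisson intervals, ratios exact conditional binomial intervals, shares Wilson or Clopper-Pearson intervals and differences of shares Newcombe intervals, all at 95%, and a share of 0 carries the limit of 3 cells over the total. No p-value was computed, and ratios were checked on simulated data.

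Cells were clustered in R 4.3.3 with Seurat 5.3.0 (reciprocal principal component integration, 2000 variable genes, 30 components, resolution 1), leaving out 871 genes. A cluster took a class name from Ctrl cells where at least 3 markers of 20 or more UMIs exceeded the remaining cells by 1.5 times or more, at least 1 of them was among its top 10 genes, and no class tied. Coordinates are those of RefSeq on GRCm38.p6, matched by symbol.

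Genes named were Tbx1, the 15 highest and 15 lowest named genes that reached 10 UPM and were not mitochondrial, ribosomal, haemoglobin or sex-linked, each list's members past 2-fold (at most 6) or else its 2 largest ratios, the genes the study names in progenitors, and mitochondrial, ribosomal and sex-linked genes past 2-fold. Some genes that this rule names are not reported here. Fgf8, Edn1, Pgk1, Ldha and the other list members outside this rule were chosen after their values were seen. The comparison, its members and the lists were chosen with earlier results of these data known. Alternatives used edgeR 4.0.16 and DESeq2 1.42.0 scaling factors only, other library totals, cell and gene filters, cell weights, thinning to 10000 UMIs, cluster makeup and sex classes. The sex classes that allow free Xist, their weighting and the setting without the shallow cluster were added after seeing the data.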

Additional observations from a re-analysis of the deposited data

Results flagged for a closer look

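For 6 genes named in the report the log2 ratio of cKO over Ctrl was past 2-fold in opposite directions at E8.5 and E9.5; the difference between stages was not tested. Tapbpl, a relative of the antigen-loading protein tapasin, had 2.75 at E8.5 and -1.16 at E9.5, and Pbld2 had 2.17 and -2.62. The sex-linked genes turned with the sex makeup of the libraries, with Xist at -1.95 and 1.14, Eif2s3y at 1.26 and -1.27 and Ddx3y at 1.29 and -1.14. Rps12-ps3, a ribosomal pseudogene whose reads may be shared with its parent gene, had 1.02 and -1.26. The cKO E9.5 library was counted on another gene table, and its part in these values was not tested.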

How the results depend on the processing

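No paired analysis was possible because each group has 1 library. Of 109 named genes, 87 kept the sign of their ratio under all alternatives that gave a value (14 for most genes) and 22 had the opposite sign under at least 1, and the medians of 18 of 32 lists kept theirs. Tbx1 was at 0.74 in cells with Xist UMIs and no Y UMI, 0.33 in cells with Y UMIs and at most 5 Xist UMIs and 0.80 in cells with 6 or more Xist UMIs and no Y UMI. Of the genes past 2-fold, Ankrd1 (0.34 with Xist and no Y UMI, 0.32 with 6 or more) and, in cells with Y and no Xist UMI, Myl2 (-0.25), Pyy (-0.26) and Eif2s3y (-0.03) had the opposite sign. Of the others, Foxd1 (-0.34), Nrg1 (0.40), Fgf10 (0.21) and Irx1 (0.05) turned with 6 or more Xist UMIs, and Boc (-0.24), Rspo1 (0.06), Tcf21 (-0.31) and Bmp7 (-0.39) with Y and no Xist UMI. The 144 higher and 41 lower genes became 274 higher in the 100 Ctrl and 634 cKO cells with Y and no Xist UMI, 92 lower in cells with Xist and no Y UMI, 27 lower in cells with Y and at most 5 Xist UMIs and 77 lower with 6 or more Xist UMIs. They became 25 lower after thinning, 288 and 106 with a minimum of 30 UMIs, 1472 and 1523 with no minimum beyond 1 UMI, and 82 and 10 where the whole interval had to pass. Lists at least 0.2 below all genes went from 7 to 4 after thinning and to 4 without cells above 2 times the median UMIs. Without integration the neural-like difference was -0.460 points and the somitic mesoderm-like one -16.6, and at resolution 0.6 the cardiomyocyte-like one was 3.68. Some classes formed no cluster under some alternatives: branchiomeric muscle-like without integration, neural-like at resolution 0.6, and neural-like and somitic mesoderm-like under the stricter cell filter. The correlation of both stages was 0.07 with at least 1000 UMIs at each. The causes were not tested. Depth limits genes near 100 UMIs, where 2-fold can lie within counting error.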
